A study of Homo sapiens with 6 samples.

Results

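The genes described here encode 10 chaperones and proteases of the mitochondrion, measured by RNA sequencing in MDA-MB-436 cells with and without silencing of MUC1. They were chosen by name, and all 10 were found among the 37887 rows of the count table. Of these, 5 are folding factors (HSPD1, HSPE1, HSPA9, TRAP1 and DNAJA3) and 5 are proteases or parts of proteases (LONP1, CLPP, CLPX, SPG7 and AFG3L2). MDA-MB-436 is an established triple-negative breast cancer line, and MUC1 encodes a transmembrane mucin. The cells carry a tetracycline-inducible MUC1 shRNA in a lentiviral vector and were puromycin selected. The 3 control libraries came from cells given 0.1% DMSO as vehicle, and the 3 shMUC1 libraries from cells given 500 ng/ml doxycycline to switch the shRNA on. The sample titles name the control as a control shRNA, whereas the series design describes the same inducible cells under vehicle. No library of doxycycline-treated cells without the MUC1 shRNA was analysed here, so doxycycline and silencing cannot be told apart, and the length of treatment of this line is not given in the sources used here.

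Most mitochondrial proteins are made in the cytosol and cross both membranes unfolded. HSPA9, the mitochondrial HSP70, pulls them in and holds them, aided by J-domain proteins such as DNAJA3. The HSPD1 ring with its HSPE1 lid encloses and folds them, and TRAP1 is the HSP90 of the matrix. Damaged or surplus proteins are degraded in the matrix by LONP1 and by the CLPP peptidase, which CLPX feeds with unfolded substrate. At the inner membrane the m-AAA protease does this work, as a ring of AFG3L2 alone or of AFG3L2 with SPG7, also called paraplegin. When unfolded proteins build up in mitochondria, cells can raise transcription of many of these genes, a programme known as the mitochondrial unfolded protein response. Its regulators include ATF5, ATF4, DDIT3 and HSF1.

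Promoter sequences are shown first for HSPD1 and HSPE1, which stand head to head, and for SPG7 and AFG3L2, the pair of paralogs whose transcripts moved differently. They are RefSeq windows on GRCh38.p14 that run from 250 bases before to 50 bases after an annotated start, on the strand of the gene. Such a window was found for 9 of the 10 genes (12 windows in all). Capitals mark matches on either strand to the heat shock element (GAANNTTC or TTCNNGAA), the cAMP response element core (TGACG), the E box (CACGTG) and an NRF1-type word (GCGCA, then any base, then GCGC). The first window of HSPD1 is at chr2:197500225-197500524 on the minus strand, its second window at chr2:197499791-197500090 on the minus strand, and that of HSPE1 at chr2:197500129-197500428 on the plus strand. SPG7 is shown by its first window, chr16:89508138-89508437 on the plus strand, and AFG3L2 by chr18:12377178-12377477 on the minus strand.
HSPD1, first window: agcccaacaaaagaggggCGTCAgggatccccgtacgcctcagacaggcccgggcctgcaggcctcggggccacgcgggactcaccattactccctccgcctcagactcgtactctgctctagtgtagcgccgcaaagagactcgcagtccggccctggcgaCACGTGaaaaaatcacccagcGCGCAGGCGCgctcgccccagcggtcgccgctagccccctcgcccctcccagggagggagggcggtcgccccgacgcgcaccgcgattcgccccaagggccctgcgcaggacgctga
HSPE1: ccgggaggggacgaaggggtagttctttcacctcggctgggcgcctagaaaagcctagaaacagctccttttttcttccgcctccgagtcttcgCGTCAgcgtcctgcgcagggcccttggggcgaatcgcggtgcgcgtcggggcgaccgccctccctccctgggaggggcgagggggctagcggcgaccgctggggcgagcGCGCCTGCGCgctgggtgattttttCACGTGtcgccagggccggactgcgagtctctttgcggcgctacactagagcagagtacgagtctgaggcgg
HSPD1, second window: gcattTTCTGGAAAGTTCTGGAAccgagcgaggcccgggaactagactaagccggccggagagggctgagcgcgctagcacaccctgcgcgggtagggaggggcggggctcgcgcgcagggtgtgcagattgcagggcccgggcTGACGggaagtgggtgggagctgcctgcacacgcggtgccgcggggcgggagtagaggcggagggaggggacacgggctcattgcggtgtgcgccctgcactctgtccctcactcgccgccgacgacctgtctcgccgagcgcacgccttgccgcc
SPG7: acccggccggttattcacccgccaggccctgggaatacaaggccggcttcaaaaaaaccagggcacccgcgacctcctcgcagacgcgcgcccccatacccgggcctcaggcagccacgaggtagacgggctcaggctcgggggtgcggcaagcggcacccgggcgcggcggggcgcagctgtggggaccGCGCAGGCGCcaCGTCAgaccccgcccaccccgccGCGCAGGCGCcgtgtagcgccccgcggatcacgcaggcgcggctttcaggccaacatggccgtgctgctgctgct
AFG3L2: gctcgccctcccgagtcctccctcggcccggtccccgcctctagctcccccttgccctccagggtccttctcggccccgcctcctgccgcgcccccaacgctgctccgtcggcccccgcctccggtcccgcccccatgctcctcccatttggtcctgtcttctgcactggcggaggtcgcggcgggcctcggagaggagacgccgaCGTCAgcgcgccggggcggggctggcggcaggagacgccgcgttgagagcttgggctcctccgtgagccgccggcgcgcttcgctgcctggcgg

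The first HSPD1 window and the HSPE1 window are the same stretch of DNA read from opposite sides over 204 bases, and their start sites lie 105 bases apart. The E box and the NRF1-type word in the 2 windows are therefore the same letters. Heat shock elements were found in the second HSPD1 window, as 3 overlapping matches at -245, -240 and -235 from the start base, and in the HSPA9 window, and in 13.49% of all 35116 promoter windows. The second HSPD1 window shares 0 bases with the HSPE1 window, so that stretch was not searched for HSPE1. The TGACG core was present in 6 of the 9 genes (HSPD1, HSPE1, TRAP1, LONP1, SPG7 and AFG3L2), against 24.55% of all windows. An NRF1-type word was present in 6 (HSPD1, HSPE1, DNAJA3, LONP1, CLPX and SPG7), against 5.78% of all windows, with 3 copies in DNAJA3 at -87, -81 and -13 and 2 in SPG7 at -60 and -25. An E box was found in HSPD1, HSPE1, HSPA9 and LONP1, against 7.26% of windows, and the GC box GGGCGG in all 9 genes, against 44.95%. The CCAAT box was found in DNAJA3 and CLPX, against 34.61% of windows, and no member window held the C/EBP-ATF element TGATGNAAT, which 0.99% of windows hold. The member windows were 63.7 to 76.3% G and C, against a median of 58.7% over all windows, which bears on how often these G- and C-rich words occur. A gene was counted if any of its windows matched, whereas the shares are of single windows, and HSPD1, LONP1 and SPG7 have 2 windows each. These matches are descriptions of the letters and not sites of binding. NRF1-type words were found both in genes that rose and in SPG7, which fell.

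The 6 libraries held 18678307 to 27825546 counts, the smallest being shMUC1 replicate 3. MUC1 itself had 93, 84 and 102 counts in the control libraries and 72, 51 and 34 in the shMUC1 libraries. Its level fell from 3.88 ± 0.401 to 2.14 ± 0.412 CPM (counts scaled to a library of 1000000, SD, n = 3), a log2 fold change of -0.84 (SE 0.214, edgeR adjusted p = 0.00119), and the groups did not overlap. VIM was high, at 718 CPM in the controls, and the receptor genes ESR1 and PGR had at most 12 and 4 counts in any library. ERBB2 was at 44.7 and 39.0 CPM. VIM was lower (417 CPM) and KRT8 higher (426 against 825 CPM) in the shMUC1 libraries, and mitochondrially encoded genes took 3.74 ± 0.413% of counts in the controls and 5.10 ± 0.139% in the shMUC1 libraries (SD, n = 3). Without the mitochondrially encoded genes the fitted values of the 10 genes below were nearly the same (HSPD1 0.1205 against 0.1202, SPG7 -0.4308 against -0.4311), and the part of the VIM and KRT8 shifts was not tested. In bulk RNA, fewer cells with a transcript and less of it per cell cannot be told apart.

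The chaperone transcripts HSPD1, HSPE1, TRAP1 and DNAJA3 and both CLP protease transcripts were higher after MUC1 silencing, by 1.09- to 1.22-fold, while SPG7 was lower, at 0.742 of its control level. HSPA9, LONP1 and AFG3L2 did not pass the test. Thus 6 of 10 genes were higher and 1 was lower at an edgeR adjusted p under 0.05, where 25.2% of all 15355 tested genes were called higher and 23.6% lower. None of the 10 passed a fold of 2, which 2.21% of all genes did upward and 3.74% downward. Groups did not overlap for 7 of the 10, against 54.8% of all genes. The median log2 fold change was 0.13 over the 10 genes and 0.0006 over all tested genes. All 10 had enough counts to be tested.

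**Figure D1:**
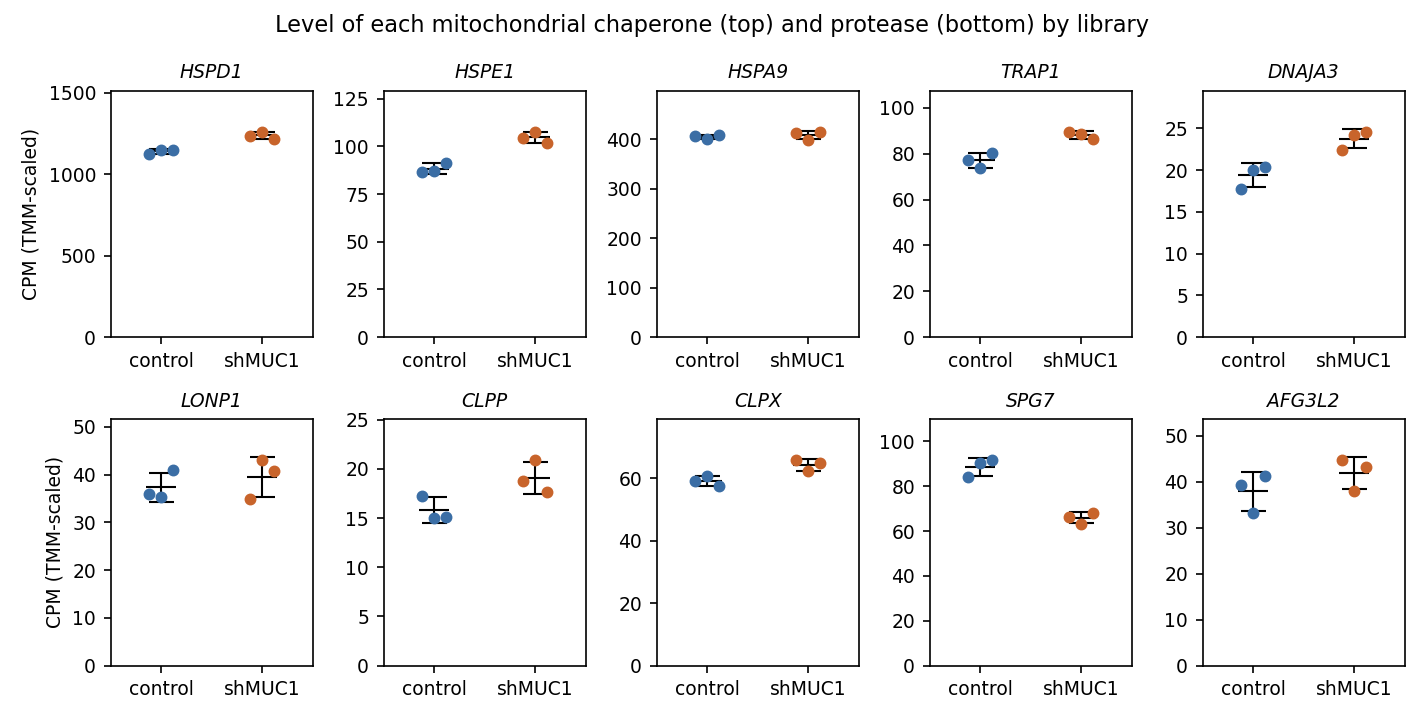
Level of each gene in CPM in the 3 control libraries (blue) and the 3 shMUC1 libraries (orange), with chaperones in the top row and proteases in the bottom row. Points are libraries, horizontal marks are means and bars are SD, and each vertical axis starts at 0. The shMUC1 points of SPG7 lie between 63.3 and 68.2 CPM, all below the controls, whereas the ranges of the 2 groups overlap for HSPA9, LONP1 and AFG3L2.

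HSPD1 (ENSG00000144381, chr2:197486581-197516737, minus strand, GRCh38), the subunit of the folding ring, was at 1122, 1149 and 1149 CPM in the controls and at 1237, 1262 and 1218 CPM in the shMUC1 libraries. All 3 shMUC1 libraries were above all 3 controls. The means were 1140 ± 15.7 and 1239 ± 21.7 CPM (SD, n = 3), a log2 fold change of 0.12 (SE 0.0267, adjusted p = 0.00027). HSPE1 (ENSG00000115541, chr2:197499994-197503457, plus strand), the lid of that ring, was at 86.3, 87.1 and 91.4 CPM in the controls and at 104.6, 107.7 and 101.6 CPM after silencing. Here too the groups were apart, and the lid rose by more than the ring in fitted value. Its log2 fold change was 0.25 (SE 0.0434, adjusted p = 1.04e-05). With a trend of each library's counts on GC content and total exon length removed, HSPE1 was at 0.12 and HSPD1 at 0.09. With the length of the principal transcript in its place, an alternative added after seeing the data, HSPE1 was at 0.11 and HSPD1 at 0.07. Both stayed called either way.

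Reads of these neighbours are not fully separable. Their annotated exons share 281 bases on opposite strands, and the strand setting of the counting is not given in the sources used here. HSPE1 also shares 192 bases with the readthrough gene HSPE1-MOB4, which had 0 counts in every library. Processed copies elsewhere in the genome are numerous for both genes. The 26 HSPE1 pseudogene rows held between 8.40 and 11.9% as many counts as HSPE1 in each library, and the 17 HSPD1 pseudogene rows between 2.25 and 2.63% as many as HSPD1.

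TRAP1 (ENSG00000126602, chr16:3651639-3717597, minus strand), the matrix HSP90, was at 77.4, 73.8 and 80.3 CPM in the controls and at 89.7, 88.5 and 86.3 CPM in the shMUC1 libraries. Every shMUC1 library was above every control. The log2 fold change was 0.19 (SE 0.0462, adjusted p = 0.00063). TRAP1 shares 1531 exon bases with DNASE1 on the opposite strand, a gene with 159 to 297 counts per library.

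DNAJA3 (ENSG00000103423, chr16:4425805-4456775, plus strand), a J-domain partner of HSPA9, was at 17.8, 20.1 and 20.4 CPM in the controls and 22.4, 24.2 and 24.6 CPM after silencing. The groups were apart. Its log2 fold change of 0.29 (SE 0.0837, adjusted p = 0.00438) was the highest fitted value of the set, with a wider interval (0.12 to 0.46) than those of the abundant chaperones.

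HSPA9 (ENSG00000113013, chr5:138553756-138575724, minus strand), the mitochondrial HSP70, was at 407, 401 and 408 CPM in the controls and at 412, 399 and 416 CPM in the shMUC1 libraries. These ranges overlap. The log2 fold change was 0.01 with a 95% interval from -0.05 to 0.08 (adjusted p = 0.757), so a change as large as that of HSPE1 lies outside the interval. HSPA9 was the sole member with the word ATCAGTA in an annotated 3' end, in 2 of its 9 annotated ends, a word that 12.03% of 18776 coding genes hold and that was picked in earlier work on fold changes of these same libraries. It draws no support here.

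Among the proteases, SPG7 (ENSG00000197912, chr16:89490719-89557768, plus strand) stood apart. It was at 84.1, 90.4 and 91.7 CPM in the controls and at 66.3, 63.3 and 68.2 CPM in the shMUC1 libraries. The groups were far apart compared with the spread within each. The means were 88.7 ± 4.05 and 65.9 ± 2.48 CPM (SD, n = 3), and SPG7 fell by 0.43 on the log2 scale (SE 0.0486, adjusted p = 1.76e-09). Larger fold changes in either direction were fitted for 28.2% of all tested genes. The annotated exons of SPG7 add up to 36008 bases, against 3359 in its principal transcript, and only 0.112% of genes have a longer total. With the trend on GC content and this total exon length removed, the log2 fold change was -0.09 (adjusted p = 0.0961). With the length of the principal transcript in its place, chosen after seeing that value, it was -0.40 (adjusted p = 7.38e-09).

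AFG3L2 (ENSG00000141385, chr18:12328944-12377314, minus strand), the partner of SPG7 in the m-AAA ring, was at 39.3, 33.2 and 41.2 CPM in the controls and at 44.7, 38.1 and 43.2 CPM in the shMUC1 libraries. Control replicate 2 and shMUC1 replicate 2 were the lowest of their groups, and the groups overlapped. The log2 fold change was 0.15 with a 95% interval from 0.0003 to 0.29 (adjusted p = 0.0916). It passed the threshold without control replicate 3 (0.20, adjusted p = 0.0338) or without shMUC1 replicate 2 (0.22, adjusted p = 0.0233). Without control replicate 2 it was at 0.06 (adjusted p = 0.54) and without shMUC1 replicate 1 at 0.098 (adjusted p = 0.366). With the replicate number as a block and all libraries kept, it was called at 0.15 (adjusted p = 0.0441). AFG3L2 shares 837 exon bases with TUBB6 on the opposite strand.

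CLPP (ENSG00000125656, chr19:6361452-6368910, plus strand), the peptidase chamber, was at 17.3, 15.0 and 15.1 CPM in the controls and at 18.8, 20.9 and 17.6 CPM after silencing. The groups were apart by a narrow margin. The log2 fold change was 0.28 (SE 0.0941, adjusted p = 0.0131), and its call was lost without control replicate 2, control replicate 3 or shMUC1 replicate 2, with values of 0.25, 0.24 and 0.21. CLPX (ENSG00000166855, chr15:65148219-65185342, minus strand), the unfoldase that feeds CLPP, was at 59.1, 60.6 and 57.7 CPM in the controls and at 65.9, 62.2 and 65.0 CPM after silencing. All shMUC1 values were above the controls, by a small step. The log2 fold change of 0.12 (SE 0.0512, adjusted p = 0.0462) was just inside the threshold, and the call was lost in 10 of 18 alternative analyses, including those without control replicate 1 or 3 or shMUC1 replicate 1 or 3 and that with the replicate block (0.12, adjusted p = 0.0505).

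LONP1 (ENSG00000196365, chr19:5691834-5720572, minus strand), the matrix protease that also acts on TFAM, was at 36.0, 35.2 and 40.9 CPM in the controls and at 34.8, 43.0 and 40.7 CPM after silencing. The lowest of the 6 values was from a shMUC1 library, and the ranges overlap. The log2 fold change was 0.08 with a 95% interval from -0.07 to 0.22 (adjusted p = 0.410).

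**Figure D2:**
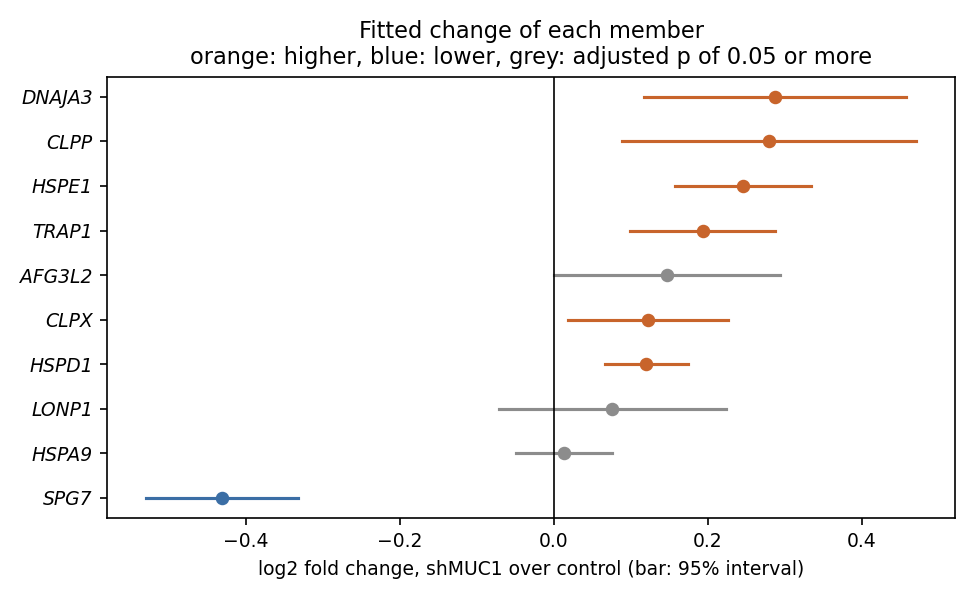
Fitted log2 fold change of each gene, shMUC1 over control, with its 95% interval as a bar. Orange marks genes higher and blue those lower at an edgeR adjusted p under 0.05, and grey the others. DNAJA3 is at the top with 0.29 and SPG7 alone is on the left with -0.43.

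Transcripts that work together need not change together, so partners were compared within each library, where scaling between libraries cancels. A trend on GC content and length does not cancel, and the ratios were not adjusted for it. The ratio of AFG3L2 to SPG7 counts was 0.468, 0.368 and 0.450 in the controls and 0.675, 0.602 and 0.634 in the shMUC1 libraries. All 3 ratios after silencing were above all 3 of the controls. The difference was 0.58 on the log2 scale (exact permutation test, two-sided p = 0.1, Benjamini-Hochberg adjusted p = 0.133 over 4 ratios). With the trend on GC content and total exon length removed, the fitted changes were 0.14 for AFG3L2 and -0.09 for SPG7. With the length of the principal transcript in its place, an alternative added after seeing the data, they were 0.13 and -0.40. With 3 libraries against 3, 0.1 is the smallest p that test can give, so none of these ratios could pass 0.05.

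The HSPD1 to HSPE1 ratio was 13.0, 13.2 and 12.6 in the controls and 11.8, 11.7 and 11.99 after silencing, a log2 difference of -0.13 (exact permutation p = 0.1). HSPA9 to DNAJA3 went from 22.9, 19.95 and 20.05 to 18.4, 16.5 and 16.9, a log2 difference of -0.28 (exact permutation p = 0.1). In both pairs the groups were apart, with relatively more of the partner than of the more abundant chaperone after silencing. With the trend on GC content and total exon length removed, fitted changes were 0.09 for HSPD1 and 0.12 for HSPE1. They were 0.02 for HSPA9 and 0.31 for DNAJA3. For CLPX to CLPP the ratios overlapped, at 3.42, 4.05 and 3.82 against 3.51, 2.98 and 3.69 (exact permutation p = 0.3).

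**Figure D3:**
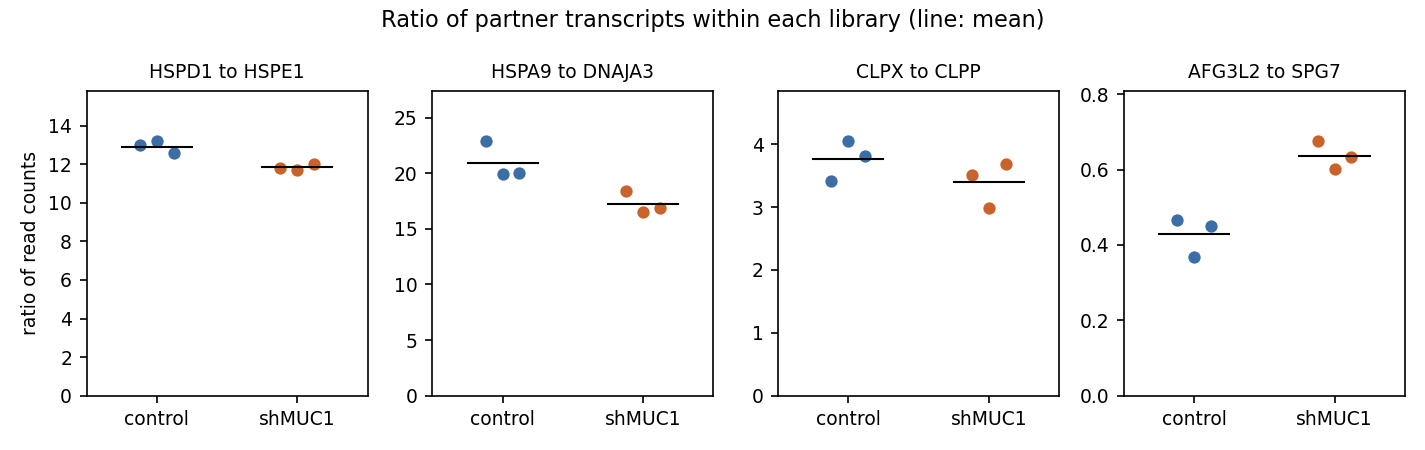
Ratio of read counts of 4 pairs of partner transcripts in each control (blue) and shMUC1 (orange) library, with lines at the means and axes from 0. The AFG3L2 to SPG7 ratio lies between 0.368 and 0.468 in the controls and between 0.602 and 0.675 after silencing.

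Levels were compared between genes after division by the length of the principal transcript, as CPM per kilobase. In the controls HSPD1 was at 464, HSPE1 at 92.9, HSPA9 at 85.7, TRAP1 at 33.6 and SPG7 at 26.4 CPM per kilobase. CLPP, CLPX, AFG3L2 and LONP1 lay near each other below these, at 13.7, 12.6, 11.7 and 11.6, and DNAJA3 was lowest at 7.03. CLPP was the highest of these 4 in every library, although its mean was above that of CLPX by less than its own SD (1.12). The control values of CLPX, AFG3L2 and LONP1 overlapped, so the order of those 3 was not resolved. After silencing, HSPD1 was at 505, HSPE1 at 110.2 and SPG7 at 19.6, and SPG7 stayed above CLPP (16.5). The transcript of the ring thus exceeded that of its lid per kilobase in every library. The order between genes depends on the length used. SPG7 has 36008 bases of total exon length and CLPP 2278, and levels per total exon length were not compared. Summed over the 5 chaperones, the level was 1730 CPM in the controls and 1865 CPM after silencing, a ratio of 1.08. HSPD1 alone made up 1140 CPM of that control sum. All members without HSPD1 had a ratio of 1.03. The 5 proteases together were at 239 and 230.9 CPM, a ratio of 0.966, since the SPG7 decrease outweighed the higher means of CLPP, CLPX, AFG3L2 and LONP1.

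The rest of the mitochondrial folding and protease machinery was read from lists of named genes. The counts in this and the later lists stand beside 25.2% of all tested genes called higher and 23.6% called lower. Of 9 tested other chaperones and assembly factors, 5 were higher and 2 lower, with a median log2 fold change of 0.19. GRPEL1 and GRPEL2, the nucleotide exchange factors of HSPA9, were both higher, at 0.18 (adjusted p = 0.00252) and 0.35 (adjusted p = 1.55e-08). DNAJC30 (0.63) and BCS1L (0.41), which is needed to assemble respiratory complex III, were also higher. CLPB, a disaggregase of the intermembrane space, was lower at -0.17 (adjusted p = 0.0282), as was PPIF, the cyclophilin of the permeability transition, at -0.12. HSCB, a J-domain protein for iron-sulfur clusters, had only 19 to 45 counts per library and was at -0.05 (adjusted p = 0.922).

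Of 16 genes listed as other proteases and peptidases, 6 were higher and 1 was lower, with a median log2 fold change of 0.16. OMA1, the stress-activated protease that cuts OPA1, went from 25.1 ± 2.04 to 32.04 ± 2.34 CPM (SD, n = 3), a log2 fold change of 0.36 (adjusted p = 0.000164). YME1L1, the i-AAA protease that faces the intermembrane space, was at 410 and 395 CPM (-0.05, adjusted p = 0.143), so the SPG7 decrease had no counterpart of like size in it. PMPCB, the catalytic subunit of the presequence peptidase, was higher at 0.19 (adjusted p = 0.000384), while its partner PMPCA was at 0.06 (adjusted p = 0.342). The peptidases XPNPEP3 (0.32) and PITRM1 (0.26) were higher and NLN was lower (-0.18). LACTB2, which the list and its counts include although it is an endoribonuclease and not a peptidase, was higher at 0.52. HTRA2, a serine protease of the intermembrane space (-0.07, adjusted p = 0.661), and PARL, the rhomboid protease of the inner membrane (0.20, adjusted p = 0.157), did not pass.

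The prohibitin complex surrounds the m-AAA protease in the inner membrane. Of 4 such regulators, 1 was higher and none lower, with a median of 0.14, so the count higher was near the 25.2% of all tested genes. STOML2, a scaffold of the inner membrane, was higher at 0.19 (adjusted p = 0.00099), whereas PHB was at 0.11 (adjusted p = 0.097) and PHB2 at -0.01 (adjusted p = 0.794).

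Import machinery was mixed, with 11 of 26 tested genes higher, 4 lower and a median of 0.10. The receptors TOMM70, which takes over chaperone-bound precursors, and TOMM20, which reads presequences, were lower at -0.46 (adjusted p = 2.39e-13) and -0.39 (adjusted p = 7.44e-13). TOMM70 went from 203 to 148 CPM. TIMM8A, an intermembrane space carrier, was also lower at -0.56, while its paralog TIMM8B was higher at 0.62. TOMM34 (0.42) and MTX2 (0.37) were higher.

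Among regulators and targets of mitochondrial stress signalling, 11 of 19 tested genes were higher and 2 lower, with a median of 0.16. ATF5, a transcription factor of the mitochondrial unfolded protein response, was at 29.4, 31.4 and 27.1 CPM in the controls and at 14.9, 13.1 and 17.4 CPM after silencing. No library of one group came near the other. Its log2 fold change was -0.97 (SE 0.0912, adjusted p = 2.58e-11), a direction opposite to that of 6 of the 10 chaperone and protease genes. ATF4 was at 78.8 and 76.7 CPM (-0.03, adjusted p = 0.659), and DDIT3, with 26 to 59 counts per library, was at -0.41 (adjusted p = 0.253). HSF1, the heat shock factor, was higher at 0.24 (adjusted p = 6.17e-06).

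TRIB3 (0.66) and SESN2 (0.60), known targets of ATF4, were higher, as was the kinase EIF2AK2 (0.35), while the ATF4 transcript was not called. Activity of the ATF4 and ATF5 proteins was not measured. MTHFD2, a folate enzyme of the matrix that is also an ATF4 target, was called lower at -0.11, though its groups overlapped. Others in the list were higher, among them CHAC1 (1.19, adjusted p = 9.8e-08), PCK2 (0.79) and PHGDH (0.28). EIF2AK1 (0.22), EIF2AK4 (0.16), DELE1 (0.16) and EIF2S1 (0.12) were called higher as well. CHAC1, at 68 to 214 counts per library, was the list's 1 gene past a fold of 2. ASNS (0.54, adjusted p = 0.212) and PSAT1 (0.06, adjusted p = 0.265) were not called. Nor were CEBPB (0.11, adjusted p = 0.0544) and EIF2AK3 (0.14, adjusted p = 0.0907).

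Substrates of the proteases were read as transcripts only. Of 9 tested, 6 were higher and 1 lower, with a median of 0.20. OPA1, the fusion GTPase cut by OMA1 and YME1L1, was higher at 0.29 (adjusted p = 2.16e-09), and so were CHCHD2 (0.20) and ERAL1 (0.26), a CLPP substrate that chaperones the mitochondrial ribosome. TFAM, the DNA packaging factor degraded by LONP1, was higher at 0.12 (adjusted p = 0.0247). MRPL32, the ribosomal protein matured by the m-AAA protease, was the one called lower, at -0.26 (adjusted p = 0.0301), though its groups overlapped. All 13 mitochondrially encoded protein genes were higher, with a median of 0.45 and values from 0.27 to 0.64, led by MT-CO3 (0.54), MT-ND2 (0.64) and MT-CO1 (0.58).

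Chaperones outside the mitochondrion were read in the same way. Of 18 tested cytosolic and endoplasmic reticulum chaperones, 2 were higher and 10 lower, with a median of -0.09. HSP90AB1 and HSP90AA1, the cytosolic counterparts of TRAP1, were lower at -0.37 (adjusted p = 2.85e-14) and -0.24 (adjusted p = 4.81e-10), and HSP90B1 of the endoplasmic reticulum was lower at -0.43 (adjusted p = 5.70e-14). Of these 4 HSP90 genes, TRAP1 alone was called higher. DNAJB1, a cytosolic J-domain protein, was higher at 0.14 and the chaperonin subunit CCT6A, a cytosolic relative of HSPD1, at 0.08 (adjusted p = 0.0243). The other listed subunits of that chaperonin were not higher. TCP1 (-0.07), CCT3 (-0.12), CCT5 (-0.10) and CCT7 (-0.10) were called lower, though the groups of CCT7 overlapped. CCT2, CCT4 and CCT8 were not called. Whether these balances differ from that of the mitochondrial genes was not tested.

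**Figure D4:**
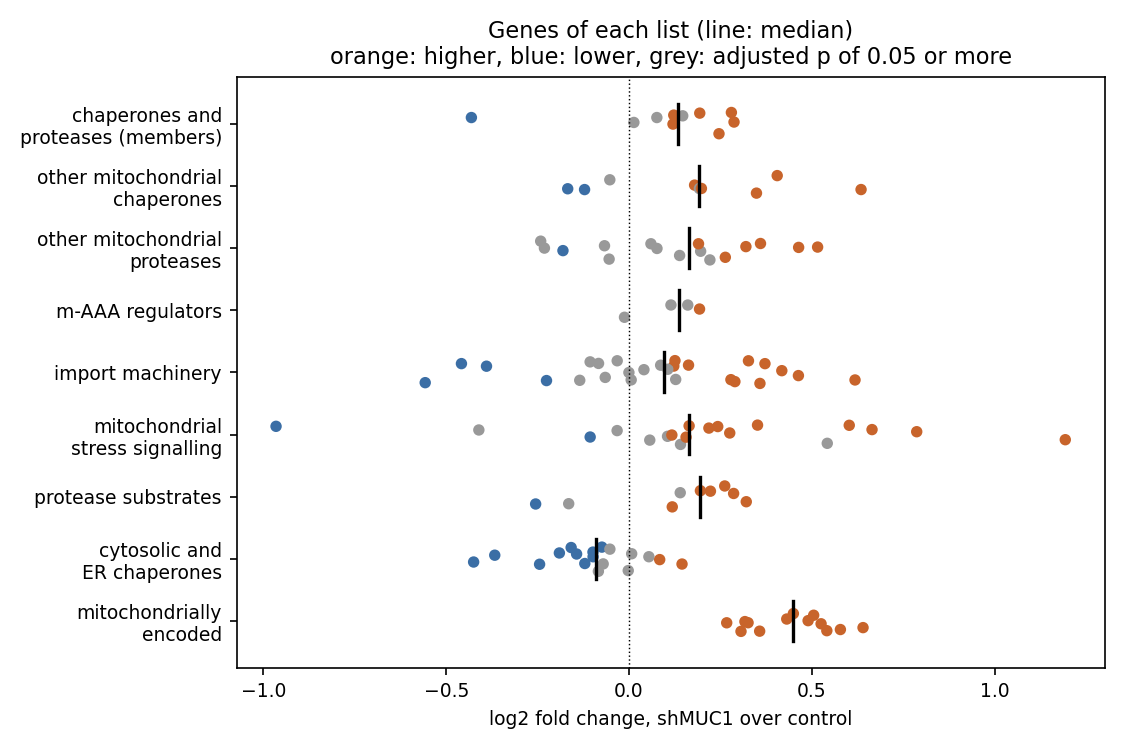
Log2 fold change, shMUC1 over control, of every tested gene in 9 lists, with 1 point per gene and a line at each median. Orange points were higher and blue points lower at an edgeR adjusted p under 0.05, and grey points did not pass, with points spread vertically at random to show them. The cytosolic and endoplasmic reticulum chaperones have the one median below 0, at -0.09, and all 13 mitochondrially encoded genes are above 0.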

How the data were processed

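RNA from 6 MDA-MB-436 cultures (3 control, 3 shMUC1) was sequenced by the authors, who deposited raw read counts per gene symbol, with no normalization. The submitters' processing notes name CASAVA 1.8.2, STAR 2.7.9a, featureCounts and DESeq2 1.24.0 and the build GRCh38.p7. The annotation release, strand setting and counting of read pairs are not given in the sources used here. Between 68.9 and 70.5% of counts from 1 to 20 were even, so single counts may not be independent reads, and halved counts were tried as an alternative.

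Groups came from the sample labels. Counts were tested with the edgeR 4.0.16 quasi-likelihood test (R 4.3.3) with TMM scaling and the edgeR expression filter, which kept 15355 of 37887 rows, and Benjamini-Hochberg adjustment over all of them. CPM values are TMM-scaled. Per the study's methods the RNA came from cells cultured in triplicate. A count of 3, the floor used here, is 0.109 to 0.161 CPM. Partner pairs were compared by log2 count ratios with exact permutation tests. Gene positions and exon overlaps are from GENCODE 29 (GRCh38), which matched 98.15% of rows by symbol, and promoters are from RefSeq. Same-numbered libraries did not deviate together (correlations 0.0258, -0.0177 and -0.0341), so the numbers were not taken to pair them.

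The members and all lists were chosen with earlier results of these data known. Named genes are the 10 members, MUC1, 16 partners and regulators named whatever their values, and from each list up to 3 genes called in each direction with the lowest p and a mean of at least 100 counts. Further stress signalling genes and chaperonin subunits are named beside these to show how others of the same kind moved. VIM, KRT8, ERBB2, ESR1, PGR, KRT19, GRHL2 and RAB25 served to check the line. Of these 8, 3 were tested, with 1 higher and 2 lower, and KRT19, GRHL2 and RAB25 had at most 4 counts in any library. Alternatives were limma-voom (limma 3.58.1), DESeq2 1.42.0, its size factors, library totals, other count filters, halved or thinned counts, removal of mitochondrially encoded genes, a replicate block, GC and length trends, and leaving out each library. The edgeR step was tested on simulated data.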

Additional observations from a re-analysis of the deposited data

How the results depend on the processing

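Over the 10 members and 18 alternatives, 161 of 180 fold changes gave the same sign and the same call. HSPD1, HSPE1, TRAP1 and DNAJA3 stayed called in all 18, with log2 fold changes from 0.07 to 0.14, 0.11 to 0.27, 0.16 to 0.22 and 0.23 to 0.33, and LONP1 stayed uncalled, from 0.0078 to 0.17. The count of members called higher was 5 or 6 in each alternative. The count called lower was 1 except with the trend on GC content and total exon length removed, where it was 0 because SPG7 was at -0.09. Its other values ran from -0.47 to -0.40. HSPA9 turned to -0.0086 with library totals alone and to -0.0093 with a mean of at least 50 counts, both far from the threshold. That filter left 177 genes higher and 275 lower at a fold over 2, from fewer genes tested. With the replicate block, AFG3L2 was called at 0.15 (edgeR adjusted p = 0.0441) and CLPX was not at 0.12 (adjusted p = 0.0505), so the counts were again 6 higher and 1 lower, with AFG3L2 in place of CLPX. No other member call changed with the block, which gave 3885 genes higher and 3591 lower. CLPX ranged from 0.09 to 0.15 and CLPP from 0.21 to 0.35 over the alternatives. Leaving out single libraries gave 3481 to 3651 genes higher. The SE was 0.0941 for CLPP at 328 to 538 counts per library and 0.0267 for HSPD1 at 22667 to 34172. HSCB, ASNS and DDIT3 had the widest intervals among the genes named in the text.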
